A study of Homo sapiens with 10 samples.

Results

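The cytosolic ribosome is built from ribosomal RNA and a set of ribosomal proteins, each encoded by its own gene and needed in nearly equal amounts. The genes examined here were the autosomal protein-coding genes of GENCODE whose symbol is RPSA, or RPL or RPS followed by an optional P, a number and an optional A, L, X or L1, without the RPS6K kinases. This rule found 80 genes among 19111 autosomal protein-coding genes, on 20 of the 22 autosomes, and it uses no measured value. Of these, 43 encode proteins of the large subunit (RPL and the stalk proteins RPLP), 30 encode proteins of the small subunit (RPS and RPSA), and 7 are paralogs whose symbol ends in L or L1. FAU, which encodes a ribosomal protein fused to a ubiquitin-like protein, falls outside the rule and is described with other genes known for TOP mRNAs.

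The data were nucleosome positions of human induced pluripotent stem cells (hiPSCs) of the line PB010.5, a single line that carries a fluorescent cell cycle reporter in the EEF2 locus. Chromatin was digested for 5 min with micrococcal nuclease (MNase), an enzyme that preferentially cuts linker DNA, in amounts of 0.5, 1, 3, 6 and 10 units, and every library received yeast DNA as a spike-in. Each amount gave 1 library, which was read in a paired-end run of 150 bp and in one of 50 bp, so that there were 10 samples. The list of 12921589 positions was called on pooled libraries, so it holds no value per concentration and no replicates, and every difference below is a description without a test between conditions. Every position spans 140 bp and carries a score made by the authors, whose scale is not stated. Autosomal scores had a median of 14.8, quartiles of 9.87 and 19.7, and a 90th percentile of 25.9. Read depth behind a single score is unknown, and the smallest step between scores was 1.23. The paper ranked a far smaller set of mononucleosomes by accessibility, and how the list relates to that set is not stated. Whether a call of low score marks a nucleosome was not tested. Within 1500 bp of the 80 transcription start sites (TSSs) of the canonical transcripts lay 1140 positions.

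Promoters of active genes commonly have a nucleosome-depleted region at the TSS, bounded downstream by the +1 nucleosome and upstream by the −1 nucleosome. Ribosomal protein genes are transcribed at high rates in growing cells, and their mRNAs begin with a cytosine and an unbroken run of pyrimidines, the 5′ terminal oligopyrimidine (TOP) tract, through which translation of the whole set is controlled together. Their first exons are often very short. In this report, +1 is the first called position whose midpoint lies at or downstream of the TSS, the upstream position is the first with its midpoint before the TSS, and the gap is the distance between these midpoints.

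The TSSs of most members carried such a pyrimidine run, which was not used to choose the genes. A pyrimidine run of at least 5 bases that begins with C within 10 bases of the TSS was present at 73 of 80 genes, or 91.3% (95% exact Clopper-Pearson interval 82.8% to 96.4%). The same was found at 34.7% of other protein-coding genes weighted to the same promoter GC content and at 33.6% of all. The TSS base was C at 60 of 80 members (interval 64.1% to 84.0%), against 10.8% of genes of the same GC. Where several runs met this rule, the one that held the TSS base or lay nearest to it was taken. Counted from its first C within the 10 bases, it was 5 to 23 bases long, with a median of 11. The following windows of the hg38 reference give the 15 bases before the TSS and the 15 bases from it on, 5′ to 3′ on the strand of the gene, with that run in capitals as far as it lies in the window. They were chosen to show a gene with the usual run (RPSA, RPLP0, RPS3), genes with the widest gaps (RPL27, RPS13), a gene with a weak position at the TSS (RPS3A) and paralogs (RPL10L, RPL7L1).
RPSA (chr3:39406705-39406734, plus strand): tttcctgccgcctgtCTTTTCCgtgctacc
RPLP0 (chr12:120201097-120201126, minus strand): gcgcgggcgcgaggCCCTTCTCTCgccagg
RPS3 (chr11:75399503-75399532, plus strand): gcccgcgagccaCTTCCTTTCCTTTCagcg
RPL27 (chr17:42998404-42998433, plus strand): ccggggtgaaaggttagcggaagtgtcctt
RPS13 (chr11:17077653-17077682, minus strand): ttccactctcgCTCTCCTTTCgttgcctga
RPS3A (chr4:151099613-151099642, plus strand): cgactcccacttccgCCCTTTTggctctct
RPL10L (chr14:46651767-46651796, minus strand): caggcgtagttaagagagcgcattttgact
RPL7L1 (chr6:42879601-42879630, plus strand): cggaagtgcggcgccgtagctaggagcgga
At RPSA, RPLP0, RPS3, RPS13 and RPS3A the run contains the annotated TSS base. RPL27, RPL10L and RPL7L1 are among the 7 members without a run that meets the rule, as are RPL17, RPL39L and RPS27L, and 4 of the 7 are paralogs.

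Of the 80 members, 77 had called positions on both sides of the TSS. RPL24 and the paralog RPL22L1 had no position within 1500 bp, and lay in stretches without any called position of 24230 bp (chr3:101674722-101698951) and 17770 bp (chr3:170864302-170882071). The cause of these empty stretches was not tested. Among the 19031 other protein-coding genes, the gap could not be measured at 539. All counts below are over the 77 members with a gap, beside other genes weighted to the members' classes of GC content in the 1000 bp around the TSS (median 57.8% in both). Intervals on shares cover counting error only and treat genes as independent.

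The +1 position of the ribosomal protein genes varied less in its distance from the TSS than that of genes of the same GC, as measured by the quartiles. The median distance of its midpoint was 125 bp (quartiles 106 and 140 bp), against 113 bp (quartiles 71 and 140 bp) at genes of the same GC. The distance was between 90 and 160 bp at 64 of 77 members (83.1%, interval 72.9% to 90.7%), against 52.8% of genes of the same GC and 50.2% of all protein-coding genes. A midpoint less than 70 bp from the TSS was found at 2 of 77 members (2.60%, interval 0.316% to 9.07%), against 24.5% at the same GC and 25.4% of all. Both limits were set after the distances were seen. In the averaged profile, the density of midpoints at the +1 maximum, 125 bp from the TSS, was 3.03 times the density 1000 to 1500 bp away, against 1.85 times at the same location in genes of the same GC. Around the TSS itself the density fell to a minimum of 0.0532 times the flanks, at 25 bp, against 0.670 times at 15 bp. The +1 maximum was 3.18 times the flanks in genes of mitochondrial ribosomal proteins and 2.94 times in proteasome subunit genes. It was 2.56 times in other genes with TOP mRNAs. The minima near the TSS were 0.154, 0.339 and 0 times the flanks, in the same order. These profiles rest on few genes, 80 members and 78, 38 and 18 in the other groups, against 15213 of the same GC. Extremes are reached more easily with few genes, so the maxima and minima are not closely comparable with those at the same GC.

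**Figure D1:**
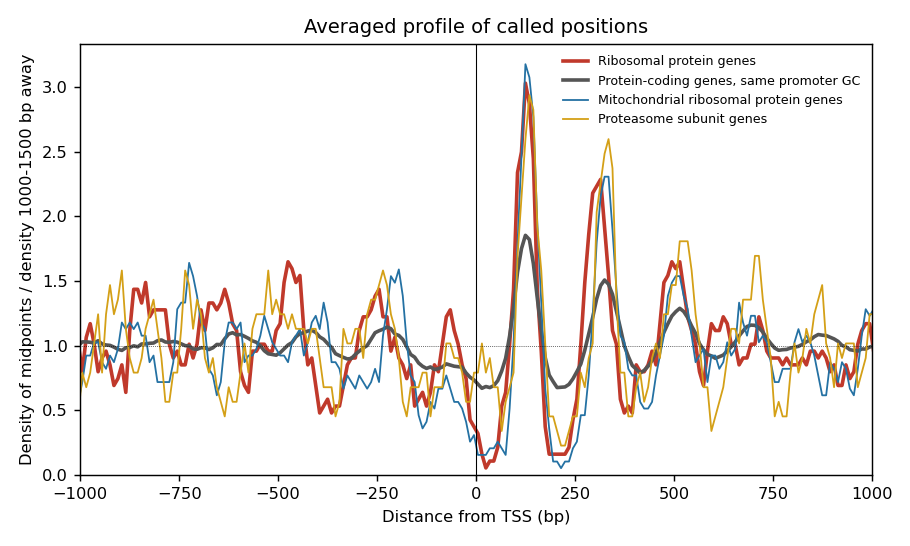
Density of midpoints of called positions by distance from the TSS in bp, in 10-bp bins smoothed over 5 bins and set relative to the flanks at 1000 to 1500 bp, for the ribosomal protein genes, protein-coding genes weighted to the same promoter GC, mitochondrial ribosomal protein genes and proteasome subunit genes. The ribosomal protein genes reach 3.03 at 125 bp and 0.0532 at 25 bp.

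The distance was more regular in the large subunit. Among its genes, 40 of 42 had the +1 midpoint between 90 and 160 bp, with a median of 126 bp and quartiles of 120 and 140 bp, while 20 of 29 genes of the small subunit did, with a median of 110 bp and quartiles of 88 and 132 bp. RPL28 at 80 bp and RPL23 at 89 bp were the exceptions in the large subunit. Of the 13 members outside this range, 8 lay between 73 and 89 bp, and 6 of those 8 belonged to the small subunit, among them RPS21, RPS26, RPS10 and RPS19. The difference between the subunits was noticed after the values were seen and was not tested.

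Weak +1 positions were found at a few genes of the small subunit. At RPS3A (ENSG00000145425.10, plus strand, chr4:151099624-151104642), the interval chr4:151099612-151099751, with its midpoint 54 bp past the TSS at 151099628, scored 7.40 and was followed by one at 154 bp with a score of 28.4. This second position lay in the range of 90 to 160 bp. RPS12 (chr6:132814569-132817564) had a +1 position at 103 bp with a score of only 6.17, while its upstream position, centred 47 bp before the TSS, scored 24.7 and covered the TSS. RPS7 had a +1 position at 192 bp with a score of 12.3.

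The +1 positions of the ribosomal protein genes also had high scores. The median score was 37.0 (quartiles 25.9 and 46.9, n = 77 genes; 95% binomial interval of the median 30.8 to 39.5), which lies above 98.6% of all autosomal positions. At genes of the same GC the median was 25.9, with quartiles of 17.3 and 34.6. A score at or above the 90th percentile of all autosomal positions was found at 59 of 77 members (76.6%, interval 65.6% to 85.5%), against 50.4% of genes of the same GC and 42.6% of all protein-coding genes. The share was close to this in genes of mitochondrial ribosomal proteins, at 58 of 78 (74.4%), and in other genes with TOP mRNAs, at 12 of 17 (70.6%), and was 21 of 36 (58.3%) in proteasome subunit genes. The 140 bp under the +1 position had a median GC of 65.0% in the members and 64.3% in genes of the same promoter GC. The median was 36.4 in the large and 37.0 in the small subunit.

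**Figure D2:**
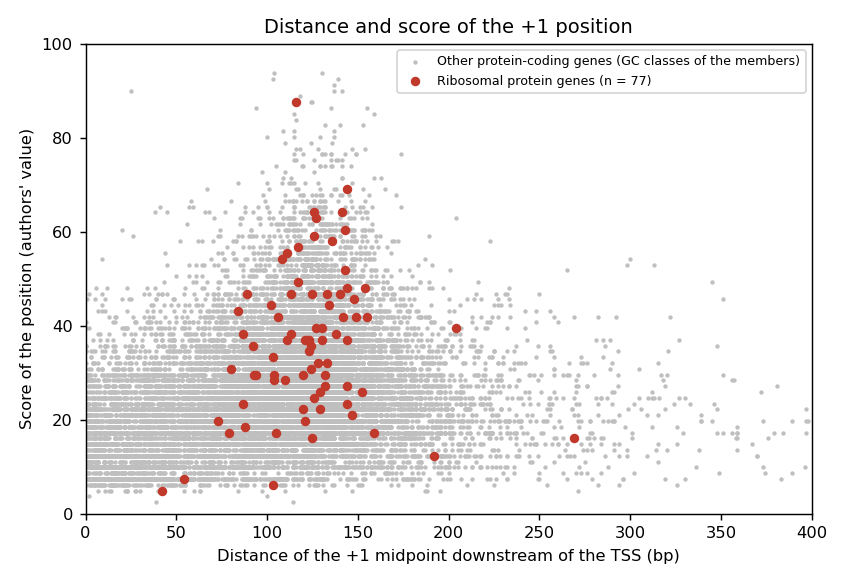
Distance of the +1 midpoint from the TSS in bp against the score of the +1 position, for 77 ribosomal protein genes (red) and other protein-coding genes in the same GC classes (grey, shown without weights, axes ending at 400 bp and a score of 100). The ribosomal protein genes have a median distance of 125 bp and a median score of 37.0, and 2 points lie below 70 bp.

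The highest score, 87.6, belonged to the paralog RPL7L1 (ENSG00000146223.16, plus strand, chr6:42879616-42889925), at a position from 42879662 to 42879801 that lay wholly in the 5′UTR of its first exon of 336 bp. It was followed by RPS3 with 69.1 (chr11:75399592-75399731), whose protein lines the channel through which mRNA enters the small subunit. RPL18 (chr19:48618982-48619121) and RPL3 (chr22:39319412-39319551) both had 64.2, and RPL36 (chr19:5690352-5690491) had 62.9. RPL3 lies near the peptidyl transferase centre of the large subunit. The +1 positions of RPS3, RPL18, RPL3 and RPL36 were wholly intronic. The +1 scores of RPS12, RPS3A and RPS7, all of the small subunit, and of the paralog RPL10L with 16.0, were among the 5 lowest.

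The +1 position often lay past the first exon. The first exon was 42.0 bp long at the median of the 80 members, against 172 bp in genes of the same GC, and shorter than 60 bp in 51 members, against 9.29% of genes of the same GC. Accordingly, the +1 interval began beyond the end of the first exon at 46 of 77 members (59.7%, interval 47.9% to 70.8%), against 9.55% of genes of the same GC and 9.12% of all protein-coding genes, a measure chosen after values were seen.

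Upstream of the TSS the members were less uniform, and the gap itself hardly set them apart. The gap was 240 bp at the median (quartiles 190 and 330 bp, range 130 to 600 bp; 95% binomial interval of the median 210 to 280 bp), and 230 bp at genes of the same GC (quartiles 170 and 310 bp). A gap of at least 300 bp, which leaves at least 160 bp free between intervals, was found at 27 of 77 members (35.1%, interval 24.5% to 46.8%), against 28.2% of genes of the same GC and 27.2% of all. No midpoint lay in the 200 bp upstream at 23 of 77 (29.9%, interval 20.0% to 41.4%), against 24.7% at the same GC and 23.7% of all. For both shares the value at the same GC lies inside the members' interval. The TSS base lay inside a called position less often, at 26 of 77 members (33.8%, interval 23.4% to 45.5%), against 51.0% at the same GC and 52.1% of all protein-coding genes. With the 5′-most annotated TSS of each gene, the share was 34 of 77 (44.2%, interval 32.8% to 55.9%), and the value at the same GC, 55.5%, lay inside this interval. Coverage of the TSS is not a measure of the upstream side alone. A +1 position with its midpoint less than 70 bp from the TSS also covers the TSS base. Such midpoints were found at 2.60% of members against 24.5% at the same GC, so this share overlaps with the result on +1 distance.

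**Figure D3:**
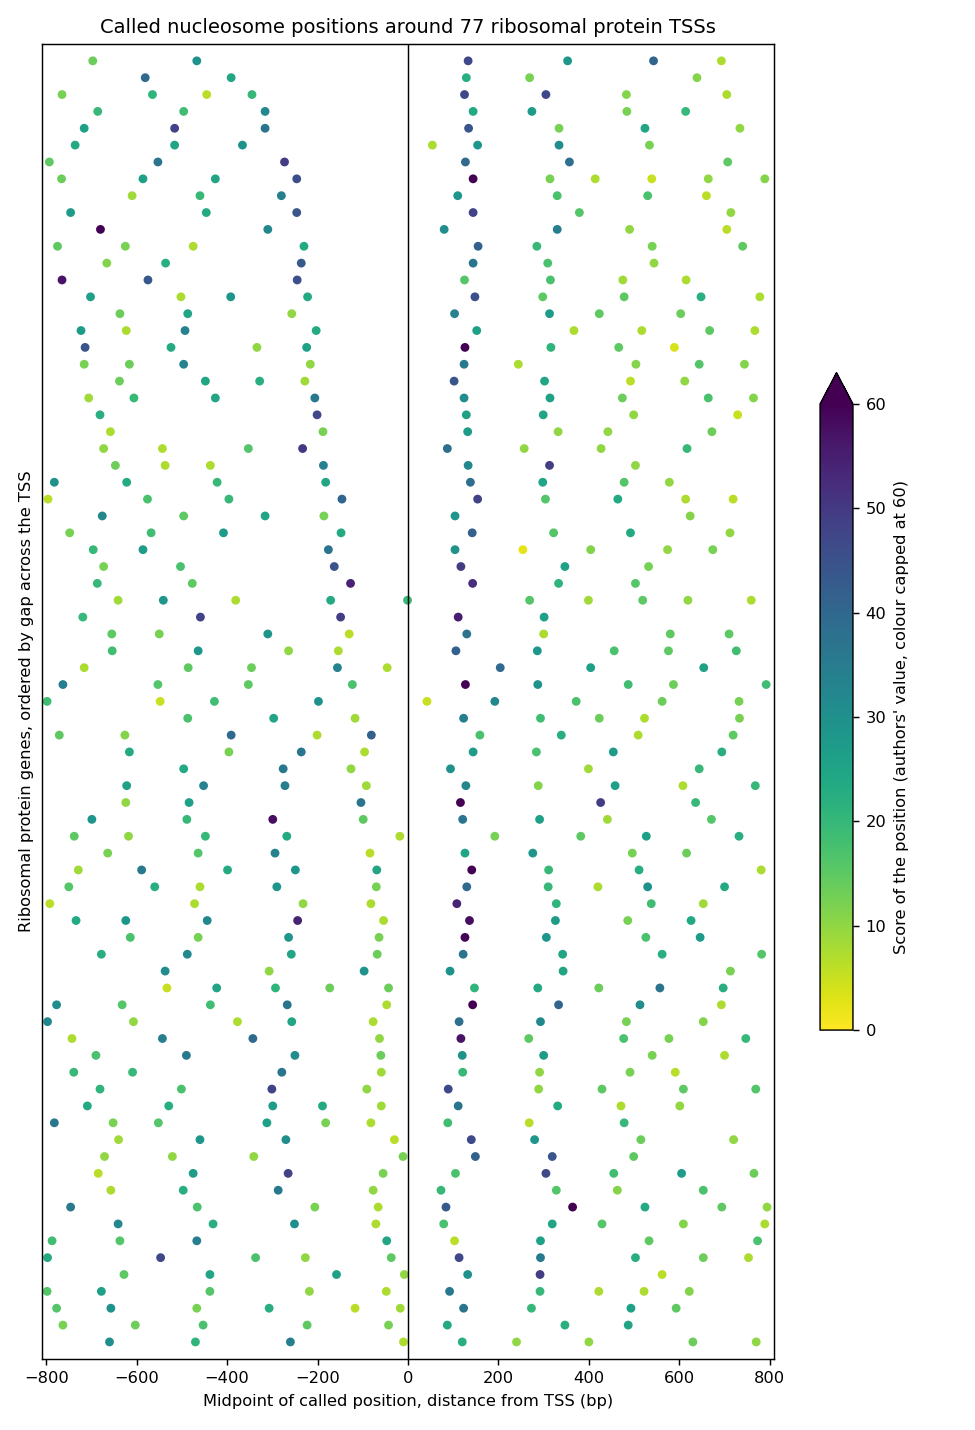
Midpoints of called positions around the TSS (x axis, bp) at 77 ribosomal protein genes, 1 row per gene, unnamed and ordered by the gap across the TSS with the widest at the top and coloured by score. The +1 midpoints lie between 90 and 160 bp in 64 of the 77 rows, while the nearest upstream midpoints run from -467 bp at RPL27 to -1 bp at RPL10L and are mostly weak where they lie close to the TSS.

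The widest gap was at RPL27 (ENSG00000131469.15, plus strand, chr17:42998273-43002959), a protein of the large subunit. Its +1 interval chr17:42998482-42998621 scored 46.9 and had its midpoint 133 bp past the TSS at 42998419. Its upstream interval chr17:42997882-42998021 scored 29.6, and the midpoints were 600 bp apart. RPLP0 (ENSG00000089157.16, minus strand, chr12:120196699-120201235), which anchors the stalk that recruits translation factors, had a gap of 520 bp, from a +1 score of 22.2 at 129 bp to an upstream score of 24.7 at -391 bp. RPS13 had 470 bp, RPL38 460 bp and RPS20 450 bp, with +1 scores of 46.9, 23.4 and 44.4. In all 5 genes the +1 midpoint lay between 125 and 144 bp, so the width came from the upstream side. RPSA (ENSG00000168028.15, plus strand, chr3:39406716-39426255), also known as the laminin receptor, had a gap of 320 bp, with a +1 position at 132 bp and a score of 27.1 and an upstream position of score 12.3 at -188 bp.

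The narrowest gaps were 130 bp at RPL13 and RPS10 and 140 bp at RPL17 and RPS23, among others. At these 4 genes the +1 midpoint lay at 87 to 132 bp, and the upstream midpoint was 8 to 43 bp from the TSS. The upstream positions were weak, with scores of 7.40 at RPL13, 12.3 at RPS10, 8.64 at RPL17 and 9.87 at RPS23, against +1 scores of 22.2, 23.4, 37.0 and 29.6. The TSS of another annotated protein-coding gene lay 2 bp from that of RPS10.

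The upstream position thus fell into a near and a far class, which were separated after the values were seen. At 46 of 77 members its midpoint lay within 150 bp of the TSS, and there its median score was 9.87 (quartiles 7.40 and 14.8). At the other 31 it lay farther away, and its median score was 29.6 (quartiles 23.4 and 43.2). Genes of the same GC had nearly the same share of near midpoints, 59.4% against 59.7%, but a smaller difference in score, with 14.8 for near and 23.4 for far positions. The +1 score was about the same in both classes of members, with medians of 37.0 and 35.8. A near upstream position with a score in the lowest quartile of the autosomes was found at 25 of 77 members (32.5%, interval 22.2% to 44.1%), against 17.5% at the same GC and 18.3% of all protein-coding genes. The share was similar in proteasome subunit genes, at 11 of 36 (30.6%), and in other genes with TOP mRNAs, at 5 of 17 (29.4%), and lower in genes of mitochondrial ribosomal proteins, at 14 of 78 (17.9%). The median GC of the near intervals was 61.4% in the members and 62.9% in the other genes.

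**Figure D4:**
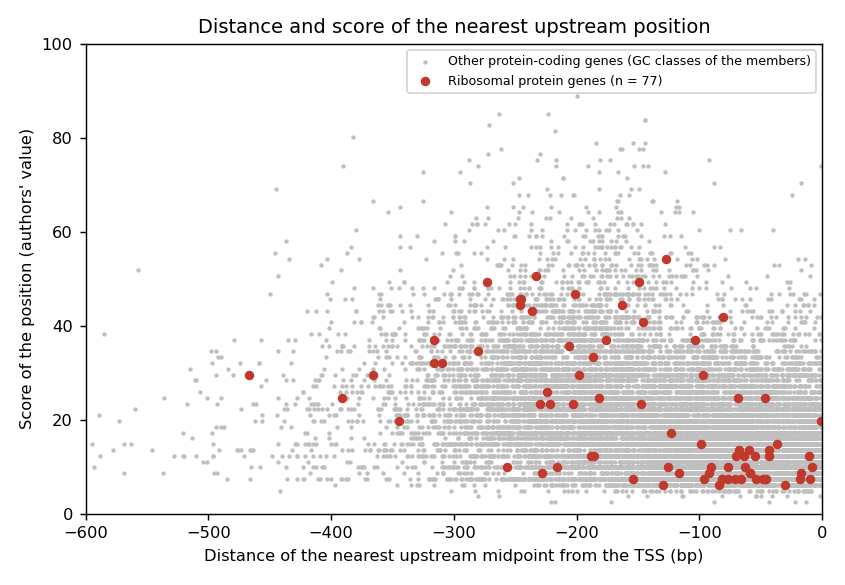
Distance of the nearest upstream midpoint from the TSS in bp against its score, for 77 ribosomal protein genes (red) and other protein-coding genes in the same GC classes (grey, shown without weights, a few beyond the axes). Most of the 46 members within 150 bp have scores near 10, with a median of 9.87, while the 31 farther ones have a median of 29.6.

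How open a promoter appears in the list therefore depended on the weak positions. Near upstream positions had lower scores in the members, with a median of 9.87 against 14.8 at the same GC. A filter at the median score of the list must then remove a larger share of them in the members. The wider differences under this filter thus partly restate that difference in score. When only positions at or above the median score were kept, the median gap of the members rose from 240 to 380 bp and that of genes of the same GC from 230 to 330 bp. The share of members with a gap of at least 300 bp rose to 81.8%, against 60.1% at the same GC, the share with no midpoint in the 200 bp upstream rose to 72.7%, against 50.7%, and the share with the TSS inside a position fell to 5.19%, against 30.5%. The median +1 distance was 126 bp under this choice, against 124 bp at the same GC, so that the difference of 125 against 113 bp over all positions was nearly absent.

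Further into the gene, the order of the scores changed. From +1 to +5, the median scores of the members were 37.0, 22.2, 14.8, 13.6 and 12.3, and those of genes of the same GC were 25.9, 21.0, 18.5, 17.3 and 16.0. The members thus started higher, were close at +2 and lay lower from +3 on. The median GC content under the positions was also lower in the members from +3 on, with 51.4% against 56.4% at +3, 49.3% against 52.9% at +4 and 46.4% against 51.4% at +5, and its part in the lower scores was not tested. Downstream of +1, the median score was 14.8 in 76 exonic and 13.6 in 408 intronic positions of the members, against 19.7 and 17.3 at the same GC, so the scores were low in introns as well as in exons. The distance from +1 to +2 and from +2 to +3 was 180 bp at the median in both sets of genes. The first of these distances had quartiles of 160 and 200 bp in the members and of 140 and 220 bp in genes of the same GC.

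**Figure D5:**
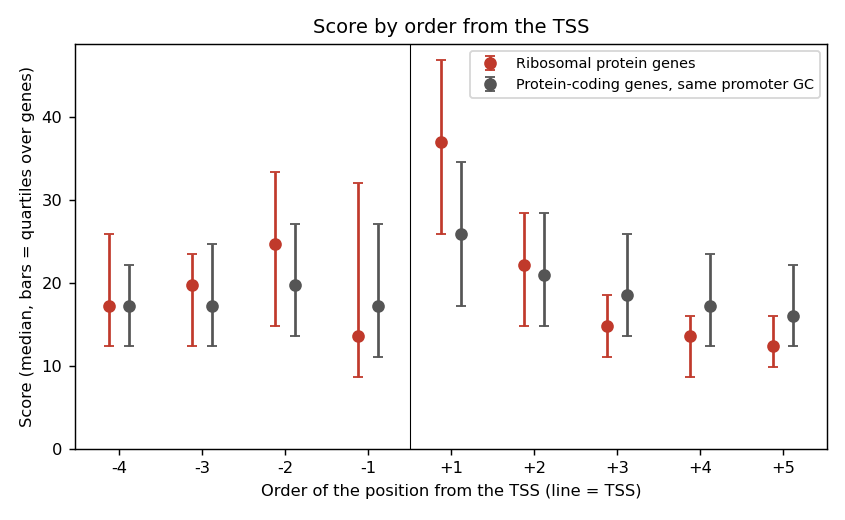
Score of called positions by their order from the TSS, from −4 to +5, as the median with bars at the quartiles over genes, for the ribosomal protein genes and protein-coding genes weighted to the same promoter GC. The members have the higher median at +1 (37.0 against 25.9), and also at +2, −2 (24.7 against 19.7) and −3 (19.7 against 17.3), and the lower median at −1 (13.6 against 17.3) and from +3 on.

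The paralogs differed among themselves. RPL26L1 and RPS27L had wide gaps of 370 and 385 bp, with +1 positions at 148 and 155 bp and scores of 45.7 and 41.9. RPL7L1 had a gap of 220 bp beside its score of 87.6. RPL39L, a testis-enriched copy, had a +1 position at 204 bp with a score of 39.5, and a weak position of score 7.40 across its TSS. RPL3L, known from skeletal and heart muscle, had a +1 position at 147 bp with a score of 21.0 and an upstream position at -43 bp with a score of 13.6. RPL10L (ENSG00000165496.5, minus strand, chr14:46651010-46651781), an intronless copy known from the testis, had a position of score 19.7 centred 1 bp before the TSS and the next at 269 bp with a score of 16.0, wholly in coding sequence. It was the member with the largest +1 distance.

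Sequence motifs of known promoter factors were counted on both strands in the 300 bp from 250 bp upstream to 50 bp downstream of the TSS. CCGGAA, the core of the ETS family, was present at 46 of 80 members (57.5%, interval 45.9% to 68.5%), against 27.1% of genes of the same GC and 22.9% of all protein-coding genes. Its reverse TTCCGG can overlap the end of the pyrimidine run, since both hold TTCC. AAGATGGC, part of the YY1 motif, was present at 11 members (13.8%, interval 7.07% to 23.3%), against 4.97% at the same GC and 4.05% of all. GGGCGG (57.5% against 56.8% at the same GC and 61.7% of all), TATAAA (10.0% against 8.69% and 9.74%), CACGTG (7.50% against 9.31% and 8.69%) and the NRF1 palindrome (2.50% against 1.93% and 1.71%) were about as frequent as at the same GC. Of the 66 CCGGAA matches at members with a gap, 30 (45.5%) had their centre inside a called position, against 46.8% at the same GC, and their median location was -60.5 bp.

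Other housekeeping complexes shared part of this pattern. Among 78 genes of mitochondrial ribosomal proteins, the +1 distance was between 90 and 160 bp at 66 (84.6%), the median +1 score was 30.8, the median gap was 310 bp, 43 (55.1%) had a gap of at least 300 bp and the TSS lay inside a position at 18 (23.1%). The cytosolic ribosomal protein genes thus had a +1 position at much the same distance but narrower gaps at the median, 240 bp. Among proteasome subunit genes, 36 of 38 had a gap, 23 of these 36 (63.9%) had the +1 midpoint in this range, the median +1 score was 30.2 and the TSS lay inside a position at 20 (55.6%). The first exon was longer in both groups, with medians of 111 and 164 bp. These groups were not compared by a test.

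Other genes known for TOP mRNAs, among them elongation and initiation factors but also NPM1, NAP1L1, HNRNPA1 and TPT1, which are not part of the translation machinery, were taken as a list of 18. C at the TSS was found at 16 of them and the pyrimidine run at 16, with EEF1G and HNRNPA1 lacking both. RACK1, which encodes a protein of the small subunit, had no position on either side, which leaves 17 genes. Their median gap was 240 bp, 11 (64.7%) had the +1 midpoint between 90 and 160 bp, the median +1 score was 28.4 and the TSS lay inside a position at 6 (35.3%). FAU had a gap of 400 bp and a +1 score of 39.5 at 82 bp. EIF3F, a subunit of the initiation factor eIF3, had the widest gap of the list, 570 bp. TPT1 had the narrowest, 120 bp, with weak positions on both sides of 12.3 and 7.40. EEF2, the elongation factor whose locus carries the reporter, had a gap of 360 bp with scores of 28.4 and 34.6.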

How the data were processed

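Per the paper's methods and the labels, the authors trimmed reads with Trimmomatic (version 0.40) and processed them in the nucMACC workflow with GRCh38 as the genome, leaving out blacklisted regions. The deposited list holds 1 signal value (score) per position. Its scaling, the program that called the positions and the runs pooled are not given in the sources used here. It was used as deposited on the autosomes, and all its coordinates fit within the hg38 chromosomes. TSSs were those of Ensembl canonical transcripts in GENCODE release 44 (the paper names release 48); of 77 members matched in RefSeq, 60 had the same TSS. The midpoint was the start plus 70 bp, searched within 1500 bp. Other protein-coding genes were weighted so that 10 classes of promoter GC held the members' shares; 8 classes had members. The members and lists were chosen with earlier results of these data known. Genes described singly were RPSA, RPLP0, the 5 with the widest and narrowest gaps, the 5 with the highest and lowest +1 scores (ties by symbol), the paralogs and those without a gap; others were named after their values were seen, and some genes under this rule are not reported here. Without replicates no test was made. Scripts (pandas 2.3.3, SciPy 1.17.1, NumPy 2.4.6 and matplotlib 3.10.9 under Python 3.11.15) were tested on simulated data.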

Additional observations from a re-analysis of the deposited data

How the results depend on the processing

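For 10 results, 33 alternatives were run, of which 21 kept the value inside its interval and 12 moved it beyond. Each result is a level in a single set of genes, which has no direction to reverse. These counts therefore do not show whether the differences between sets of genes held. For the +1 maximum of the profile, the interval used was the same as for the median +1 distance, 120 to 129 bp. Of the alternatives, 8 were added after the data were seen. When weaker positions, below the median score, were dropped, the median gap of the members was 380 bp, 81.8% had a gap of at least 300 bp, 72.7% had no midpoint in the 200 bp upstream and, added afterwards, 5.19% had the TSS inside a position, as removing positions must widen gaps. A gap of at least 250 bp was found at 49.4% of members and of at least 400 bp at 9.09%, against 42.6% and 8.74% at the same GC. No midpoint lay in the 250 bp upstream at 13.0%, against 12.4%. With the 5′-most TSS of each gene, the median +1 score of the members fell to 29.6 and that of genes of the same GC, added afterwards, to 23.4; the cause was not tested. Also added afterwards, the latter was 28.4 for the highest score within 300 bp downstream and 23.4 without GC weights. With bins of 25 bp the +1 maximum lay at 137.5 bp, the centre of a coarser bin. No paired analysis was possible because the deposited list is a single pooled set of positions, and for the same reason no library could be left out.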

Other observations

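Introns of ribosomal protein genes often hold genes of small nucleolar RNAs (snoRNAs), which guide the modification of ribosomal RNA. Of the 80 members, 26 held 58 annotated snoRNA genes on their own strand. The 26 hosts had a median gap of 250 bp, a median +1 distance of 124 bp and a median +1 score of 33.3 (quartiles 26.2 and 46.3). The 51 other members with a gap had 240 bp, 126 bp and 38.2 (quartiles 27.1 and 46.3), so the ranges overlapped widely. Processed pseudogenes, intronless copies of an mRNA elsewhere in the genome, were annotated for 74 members, 1403 in all, and were most numerous for RPL21 with 128, RPL23A with 89 and RPL7A with 78. Members with at least 10 such pseudogenes and those with fewer both had a median +1 score of 37.0.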
